A study of Homo sapiens with 51 samples.

Results

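Chromatin accessibility was followed at the genes for receptors of γ-aminobutyric acid (GABA) and glutamate, the main inhibitory and excitatory transmitters of the brain. The genes were chosen by symbol: RefSeq protein-coding genes on GRCh38 for GABA-A subunits (GABRA to GABRR), GABA-B subunits (GABBR1, GABBR2) and ionotropic and metabotropic glutamate receptors (GRIA, GRID, GRIK, GRIN, GRM). This gave 48 of 19974 protein-coding genes, 21 for GABA receptors and 27 on the glutamate side. The symbol rule also took GRID2IP, which codes for delphilin, a postsynaptic scaffold and not itself a receptor. A region of open chromatin was linked to a gene where its nearest protein-coding gene end lay within 50 kb and belonged to that gene. Such regions numbered 332 of 100584 at day 0, 415 of 142087 under BMP4 and 470 of 162317 under SMADi. GABRR1 had a region only under BMP4, so 47 of the genes were measured at day 0 and under SMADi, and all 48 under BMP4.

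The cells were H1, an established line of human embryonic stem cells (hESCs), and the assay was ATAC-seq, in which a transposase cuts and tags open DNA. The labels give 3 lines, WT, KO and ΔATG (written DATG in sample titles), and the sources used here do not say which gene is altered or whether a line is 1 clone. The series title concerns an RNA with several functions in the human embryo, and the comparisons ask how receptor-gene chromatin moved in WT cells and where the altered lines differed. Undifferentiated cells (day 0) gave 2 libraries per line. Cells under BMP4, a growth factor labelled here as the mesoderm treatment, gave 2 libraries per line on each of days 1, 2, 3, 4 and 5. Cells under SMADi, a neural induction kit that blocks SMAD signalling and is labelled as the neuroectoderm treatment, gave 6 WT, 5 KO and 4 ΔATG libraries on days 1, 4 and 5. KO day 4, ΔATG day 1 and ΔATG day 5 under SMADi were single libraries, whose spread was taken from the rest of the table. Nothing in the labels says that the libraries a and b of a group came from separate cultures, so a p-value here reflects the spread between these libraries alone, which may be technical.

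GABA-A receptors are chloride channels built from several subunits, usually alpha and beta with a gamma or delta subunit, and the rho subunits form channels best known from the retina. GABA-B receptors are G protein-coupled pairs of GABBR1 and GABBR2. AMPA (GRIA), kainate (GRIK) and NMDA (GRIN) receptors are cation channels opened by glutamate, the delta receptors (GRID) act as synaptic organisers, and the metabotropic receptors (GRM) signal through G proteins. These genes are known for their use in neurons, so in stem cells and early germ-layer cells accessibility describes the state of their chromatin and is not a measure of transcription or of receptors on the cell.

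The sequences just before the start of 5 genes are shown because a region called between groups overlapped each of them. Those calls were under BMP4 or SMADi, and the base composition of the 5 differs widely. They come from RefSeq (GRCh38.p14), which matched 35 of the 48 genes, and each covers 250 bases before the start, 5′ to 3′ on the gene's strand. Capitals mark the bases that lie inside the deposited region of the BMP4 table. For GABBR2 and GRM3 the calls at the start named below are under SMADi, which has its own set of regions.
GABRP (chr5:170783475-170783724, plus strand): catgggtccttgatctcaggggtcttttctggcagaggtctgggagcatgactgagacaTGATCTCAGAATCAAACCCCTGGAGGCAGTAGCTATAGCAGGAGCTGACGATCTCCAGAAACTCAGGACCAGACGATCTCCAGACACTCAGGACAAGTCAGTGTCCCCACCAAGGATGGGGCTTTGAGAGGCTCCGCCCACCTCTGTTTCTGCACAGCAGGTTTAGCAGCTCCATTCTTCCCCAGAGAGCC
GABRG1 (chr4:46124055-46124304, minus strand): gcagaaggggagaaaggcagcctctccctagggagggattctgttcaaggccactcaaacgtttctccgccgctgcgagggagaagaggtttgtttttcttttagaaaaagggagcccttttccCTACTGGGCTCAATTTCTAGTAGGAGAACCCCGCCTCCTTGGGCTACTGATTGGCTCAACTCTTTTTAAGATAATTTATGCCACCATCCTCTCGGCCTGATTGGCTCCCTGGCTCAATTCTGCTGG
GABBR2 (chr9:98708936-98709185, minus strand): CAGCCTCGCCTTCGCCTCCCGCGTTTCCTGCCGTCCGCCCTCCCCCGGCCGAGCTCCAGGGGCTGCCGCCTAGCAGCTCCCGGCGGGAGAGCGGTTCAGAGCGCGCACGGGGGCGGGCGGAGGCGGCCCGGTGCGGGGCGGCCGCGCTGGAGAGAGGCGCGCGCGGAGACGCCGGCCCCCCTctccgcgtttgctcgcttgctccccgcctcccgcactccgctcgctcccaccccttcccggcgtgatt
GRM3 (chr7:86643659-86643908, plus strand): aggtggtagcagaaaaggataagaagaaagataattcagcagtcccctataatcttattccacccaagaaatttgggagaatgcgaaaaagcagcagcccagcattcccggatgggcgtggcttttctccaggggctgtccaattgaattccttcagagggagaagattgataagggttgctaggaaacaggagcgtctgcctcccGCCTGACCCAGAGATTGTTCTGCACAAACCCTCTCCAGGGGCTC
GRM7 (chr3:6860865-6861114, plus strand): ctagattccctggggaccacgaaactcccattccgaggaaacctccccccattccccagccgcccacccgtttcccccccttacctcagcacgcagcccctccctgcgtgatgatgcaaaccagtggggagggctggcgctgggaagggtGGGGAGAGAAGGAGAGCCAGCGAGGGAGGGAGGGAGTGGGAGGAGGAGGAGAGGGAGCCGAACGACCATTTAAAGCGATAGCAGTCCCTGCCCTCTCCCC

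GABBR2 stood apart from the other 4 sequences, with 78.0% G or C and 38 CpG dinucleotides. GABRP had 54.8% and 3, GABRG1 51.2% and 6, GRM3 50% and 5, and GRM7 64.4% and 11. The motif GGGCGG, a GC box, occurred on either strand 4 times in GABBR2, overlapping matches included, and once each in GABRP and GRM7. The motif CCAAT occurred on either strand 2 times in GABRG1 and once in GRM3. Over windows of 300 bases (250 before to 50 after the start), the median of the 35 matched genes was 65.0% G or C and 16 CpG, against 62.7% and 22 over all 15843 promoters. GGGCGG was found on either strand in 51.4% of the 35 windows and in 58.5% of all, CCAAT in 40.0% and 36.4%, CAGCTG, an E-box, in 11.4% and 17.7%, TATAAA in 2.86% and 9.63%, and ATTTGCAT, an octamer, in 0 and in 1.70%. None of these motifs contains another, and a match is only a description of the window.

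Total counts per library ran from 4616521 to 7516259 at day 0, from 4019778 to 13850448 under BMP4 and from 7086918 to 23252871 under SMADi. Receptor-linked regions took 0.225 to 0.291% of them, or 9648 to 54195 counts. One library went against its label. At 9 regions that matched 10 lost in KO cells at day 0, the library labelled KO day 1 SMADi b had a mean of 6.17 CPM, counts scaled to library size, against 0.07 to 0.29 CPM in the other KO libraries under SMADi and 5.8 to 10.7 CPM in WT and ΔATG. At 3 regions lost in ΔATG cells it had 0.115 CPM, like the ΔATG libraries. It was kept as labelled, and is the second value wherever 2 KO day 1 values under SMADi are given. The main counts of receptor genes and regions called under SMADi are given with and without it. Shares over all genes and regions are given only for the fit that holds it. A gene or region is said to be called where edgeR's quasi-likelihood test over the whole table gave a Benjamini-Hochberg adjusted p under 0.05. Genes that mark the labelled cell types were called as follows in WT cells from day 1 to day 5. Under BMP4, pluripotency genes were called lower for 6 of 6, and mesoderm genes higher for 4 of 7. Neuroectoderm genes were called higher for 1 and lower for 6 of 8, and markers of neurons lower for 5 of 10. Neural crest genes were lower for 2 of 5, amnion and trophoblast genes higher for 2 and lower for 1 of 6, and endoderm genes lower for 2 of 4. Under SMADi, pluripotency genes were lower for 5 of 6, neuroectoderm genes higher for 5 of 8, and markers of neurons higher for 4 and lower for 1 of 11. Neural crest genes were higher for 3 and lower for 1 of 5, mesoderm genes higher for 1 and lower for 2 of 7, amnion and trophoblast genes lower for 1 of 6, and endoderm genes higher for 2 and lower for 2 of 4.

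**Figure D1:**
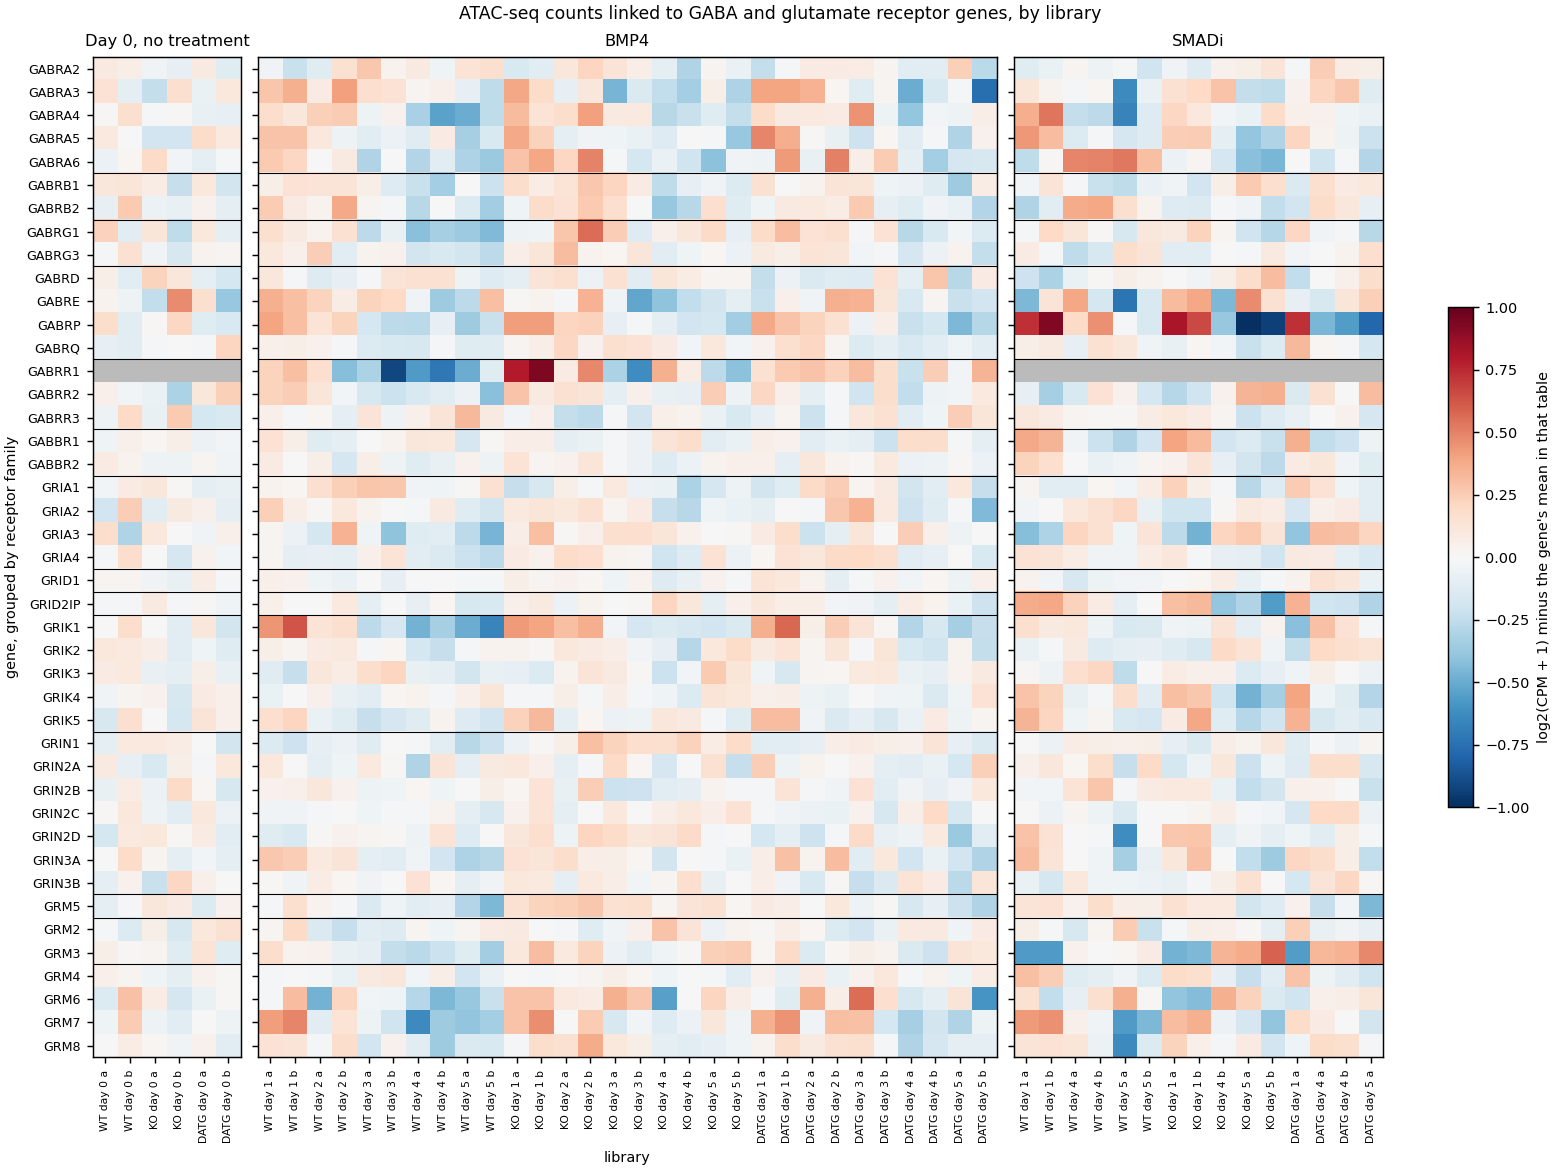
Heat map of gene-linked accessibility, the counts summed over all regions linked to a gene, for 43 receptor genes (rows) in the 51 libraries (columns, grouped by treatment, day and line). Colour is log2(CPM + 1) minus that gene's mean in the same table, and grey marks GABRR1 where it had no region; GABRP and GRM7 go from high on day 1 to low on day 5 in WT cells under both treatments.

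At day 0 no receptor gene was called different in either altered line. GABRA6, for an alpha subunit typical of cerebellar granule cells, lay between 7.13 and 8.93 CPM over the 6 libraries, and GRM3, for a metabotropic receptor of group II, between 57.2 and 68.6 CPM. GABRP lay between 53.9 and 69.5 CPM. A gene's CPM here is its share of all gene-linked counts on the CPM scale, so it grows with the number of its regions and is compared only with itself. In edgeR's quasi-likelihood test over all genes with Benjamini-Hochberg adjustment, 0 of 47 were called in KO minus WT, where the smallest adjusted p was 0.342 and 3 had an unadjusted p under 0.05. ΔATG minus WT also gave 0 of 47, with a smallest adjusted p of 0.350 and 3 genes under 0.05 unadjusted. DESeq2 called 0 in both. Across all genes 0.058% were called higher and 0.0812% lower in KO, and 0.0638% higher and 0.116% lower in ΔATG. Of the 332 regions none was called in either line, with 27 and 25 under an unadjusted p of 0.05 and 0 by DESeq2. Over all regions 0.0537% were called higher and 0.0318% lower in KO, and 0.0408% and 0.165% in ΔATG.

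From day 1 to day 5 of BMP4 the receptor genes of WT cells mostly fell. Of 48 genes, 25 were called lower and 1 higher, and the median log2 difference was -0.24, against -0.01 over all genes tested. Across all genes 23.9% were called higher and 23.6% lower. GABA receptor genes were called lower for 11 and higher for 1 of 21, glutamate-side genes lower for 14 and higher for 0 of 27. In these bulk libraries, fewer cells with a region open and less opening per cell cannot be told apart. The fall ran through most families: 5 of 6 alpha subunits, 3 of 4 AMPA subunits and 3 of 4 metabotropic receptors of group III were called lower. NMDA subunits were the family with the smallest share, 1 of 7 (GRIN3A, -0.56).

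**Figure D2:**
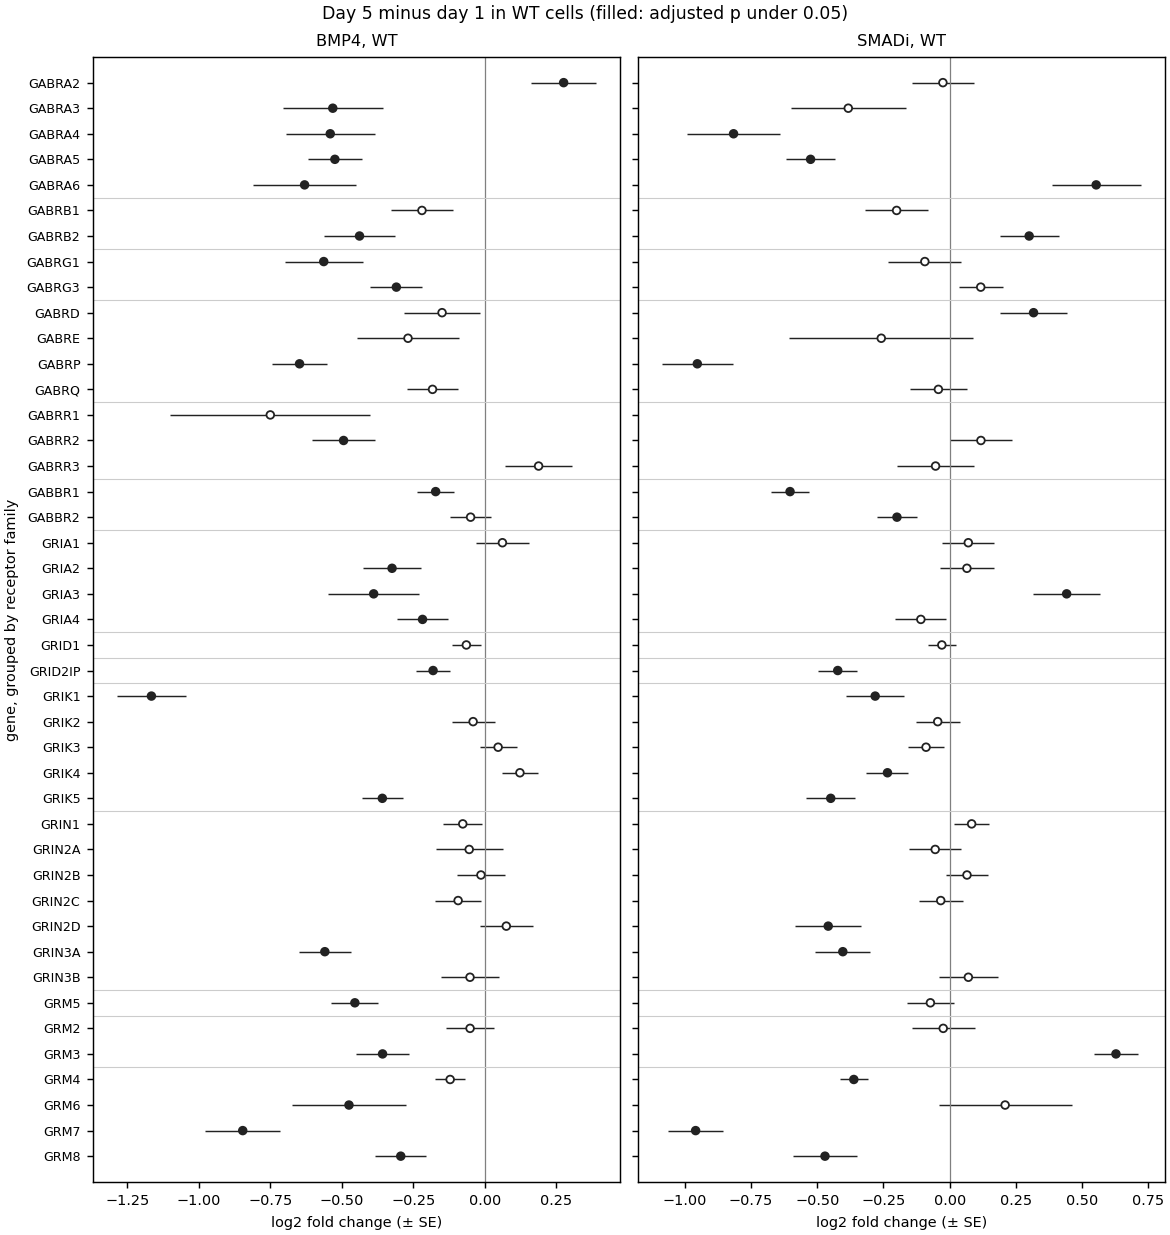
Day 5 minus day 1 in WT cells for 43 receptor genes, as log2 fold change with its SE, under BMP4 (one panel) and SMADi (the other), with filled points for called genes. Under BMP4 most points lie below 0, from GRIK1 at -1.17 to GABRA2 at 0.28, while under SMADi they spread from GRM7 at -0.96 to GRM3 at 0.63.

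GRIK1, for a kainate receptor subunit, fell furthest. Its WT values were 33.2 and 38 CPM on day 1, 26.6 and 27 on day 2, 20 and 21.4 on day 3, 17.1 and 19 on day 4, and 16.8 and 15 on day 5. Every day 1 library lay above every later one, and the log2 difference was -1.17 ± 0.12 (SE, 2 libraries against 2; edgeR adjusted p = 3.02e-11). GRM7, for a presynaptic metabotropic receptor of group III, went from 34.1 and 35.8 CPM to 19 and 19.8 CPM (-0.85 ± 0.13, edgeR adjusted p = 5.63e-07). GABRP, for the pi subunit of GABA-A receptors, went from 50.2 and 46.9 CPM to 29.4 and 32.3 CPM (-0.65 ± 0.10, edgeR adjusted p = 2.65e-07). The day 1 and day 5 libraries of both genes did not overlap.

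Smaller falls were called for GABRA6, from 15.3 and 14.7 to 9.93 and 9.49 CPM (-0.63 ± 0.18), and for GABRG1, a gamma subunit gene, from 23.9 and 22.6 to 16.3 and 15.4 CPM (-0.56 ± 0.14). GRM5, for a metabotropic receptor that acts through phospholipase C, went from 64.9 and 73.7 to 53.5 and 47.8 CPM (-0.45 ± 0.08). GRM3 went from 59 and 53.4 to 47.9 and 40.8 CPM (-0.36 ± 0.09), and GRID2IP from 200 and 193 to 173 and 174 CPM (-0.18 ± 0.06). In each of these genes both day 5 values were below both day 1 values. GABRA2, the only gene called higher, went from 33.7 and 29.6 to 38.1 and 38.8 CPM (0.28 ± 0.11, edgeR adjusted p = 0.0388), but it lost that direction, at -0.41, when only regions within 10 kb of the gene were summed. Most of the remaining called genes lay between -0.54 and -0.17. Without WT day 1 a, or without WT day 5 b, 17 genes were called, and 11 of the 26 calls held whichever library of the table was left out.

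**Figure D3:**
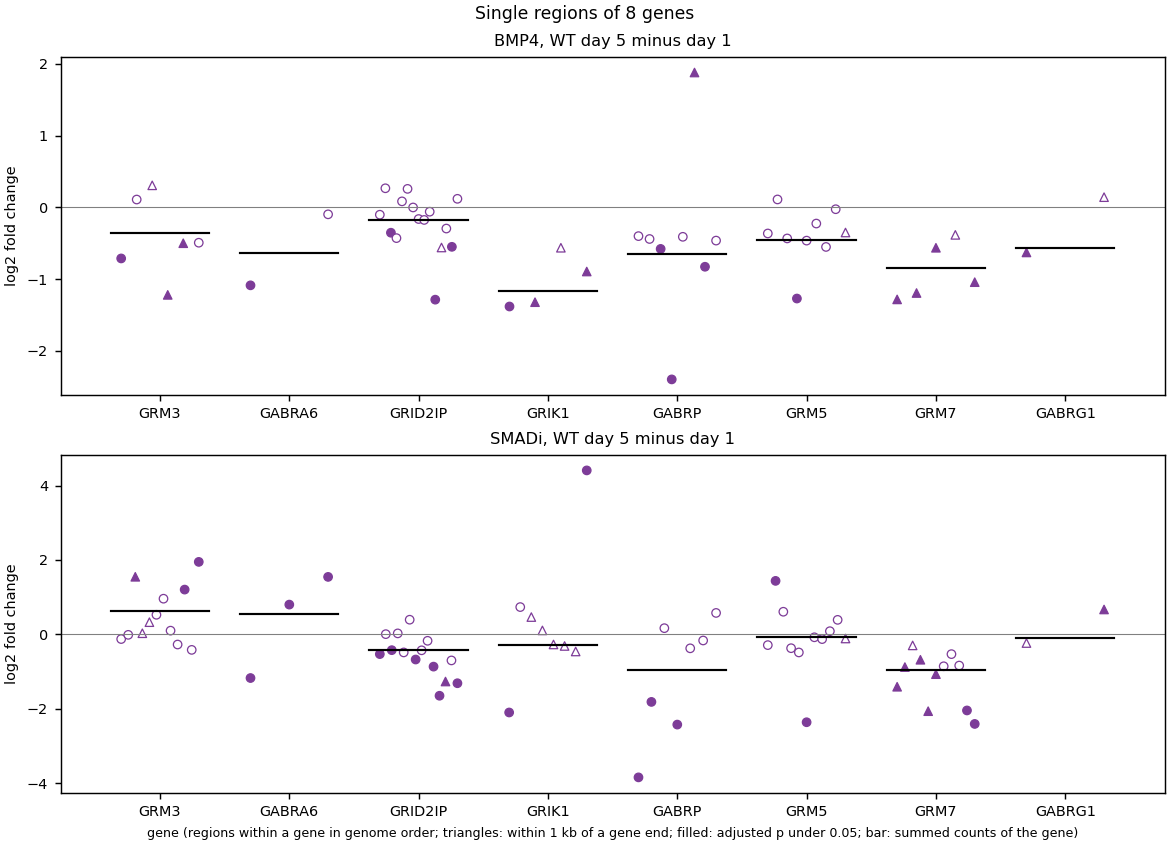
Log2 fold change from day 1 to day 5 in WT cells for every single region of 8 receptor genes, under BMP4 and SMADi. Triangles are regions within 1 kb of a gene end, circles all others, and the bar is the gene's summed value; a gene's regions often lie on both sides of 0.

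Single regions showed more movement in both directions than the sums. Of 415 regions 82 were called lower and 43 higher, against 14.7% lower and 20.3% higher over all regions. With total counts as the scale in place of TMM, edgeR's trimmed-mean scaling, the split was 114 lower and 33 higher, and by DESeq2 it was 38 and 31. Without WT day 1 a 83 regions were called in all, and without WT day 5 b 76. Among called regions of at least median depth, taken once per gene, the largest rises were at a GRIK3 region 30427 bp outside the gene (chr1:36764900-36765100), which rose by 2.20 ± 0.28, at a GRIN2B region 10738 bp outside (chr12:13526399-13526599), which rose by 1.55 ± 0.27, and at a region 14729 bp outside GABRA2 (chr4:46405029-46405229), which rose by 1.23 ± 0.17. Large falls were found at a region 36903 bp outside GRIK1 (chr21:29499830-29500030, -1.38 ± 0.20) and at 1 region 27667 bp outside GABRA5 (chr15:26838852-26839052, -1.10 ± 0.22). GABRA5 is, like GABRG3, part of a GABA-A subunit cluster on chromosome 15.

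Regions close to gene ends leaned downwards. Of 128 receptor-gene regions within 1 kb of a gene end, 20.3% were called lower and 3.91% higher in WT cells under BMP4. Over all protein-coding genes the shares in that position were 7.66% lower and 22.2% higher. Inside genes, over 1 kb from an end, the receptor genes had 18.1% lower and 13.3% higher, against 16% and 18.5% over all genes.

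GABRP went the other way at its start. The region over the sequence printed above (chr5:170783534-170783734) had 0.97 and 1.18 CPM on day 1, 3.27 and 2.71 on day 2, 4.78 and 3.24 on day 3, 5.47 and 4.83 on day 4, and 3.22 and 4.56 on day 5 in WT cells. It rose by 1.88 ± 0.34 from day 1 to day 5 while the sum over all GABRP regions fell. In KO cells the same region had 1.04 and 0.956 CPM on day 1, 0.512 and 1.03 on day 2, 2.04 and 1.58 on day 3, 2.01 and 1.28 on day 4, and 1.27 and 1.55 on day 5. From day 2 on, every KO value lay below every WT value. ΔATG cells had 0.854 and 0.829 CPM on day 1, below both other lines. From day 2 on they were in between, with 2.15 and 2.17 on day 2 and 2.48 and 3 on day 3. They had 2.84 and 2.77 CPM on day 4, and 3.11 and 2.73 on day 5. Averaged over days the region was lower by 1.27 ± 0.18 in KO and by 0.54 ± 0.16 in ΔATG on the log2 scale, both called by edgeR. Of 42 regions that overlap a promoter window of 28 genes, 4 were called higher in WT under BMP4 (GABRP, GRIA2, GRIK4, GRM2). Another 7 were lower (GABRA2, GABRG1, GRIA1, another region of GRIA2, GRM4, GRM7, GRM8). Promoter windows of all genes were not counted. Of all regions within 1 kb of a protein-coding gene end, 22.2% were higher and 7.66% lower.

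Under BMP4 more receptor genes were called higher than lower in KO cells against WT. Averaged over the 5 days, 16 of 48 genes were higher and 1 was lower, with a median log2 difference of 0.08 against 0.00203 over all genes. Across all genes 11.6% were called higher and 11.2% lower. Glutamate-side genes made up 13 of the 16, and GABRQ, GABRG1 and GABRR1 were the GABA receptor genes among them. In ΔATG 4 genes were called higher and 0 lower (GRIN1, GRIA4, GABRG1, GABRR1), against 5.43% higher and 5.02% lower over all genes. All KO differences but that of GABRR1 were under 0.30 on the log2 scale. DESeq2 called 6 genes in KO and 1 in ΔATG, and the ΔATG count was 1 or 2 without a single one of WT day 1 b, 3 a or 5 b or of ΔATG day 1 b, 2 b or 4 b. In the same comparison 6 of 6 pluripotency genes and 7 of 8 neuroectoderm genes were called higher in KO, and 6 of 7 mesoderm genes lower, with 3 of 10 markers of neurons higher. In ΔATG these were 5 of 6, 7 of 8, 6 of 7 and 1 of 10. Neural crest genes were higher for 2 of 5 in KO and 3 of 5 in ΔATG. Their part in the receptor-gene differences was not tested.

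**Figure D4:**
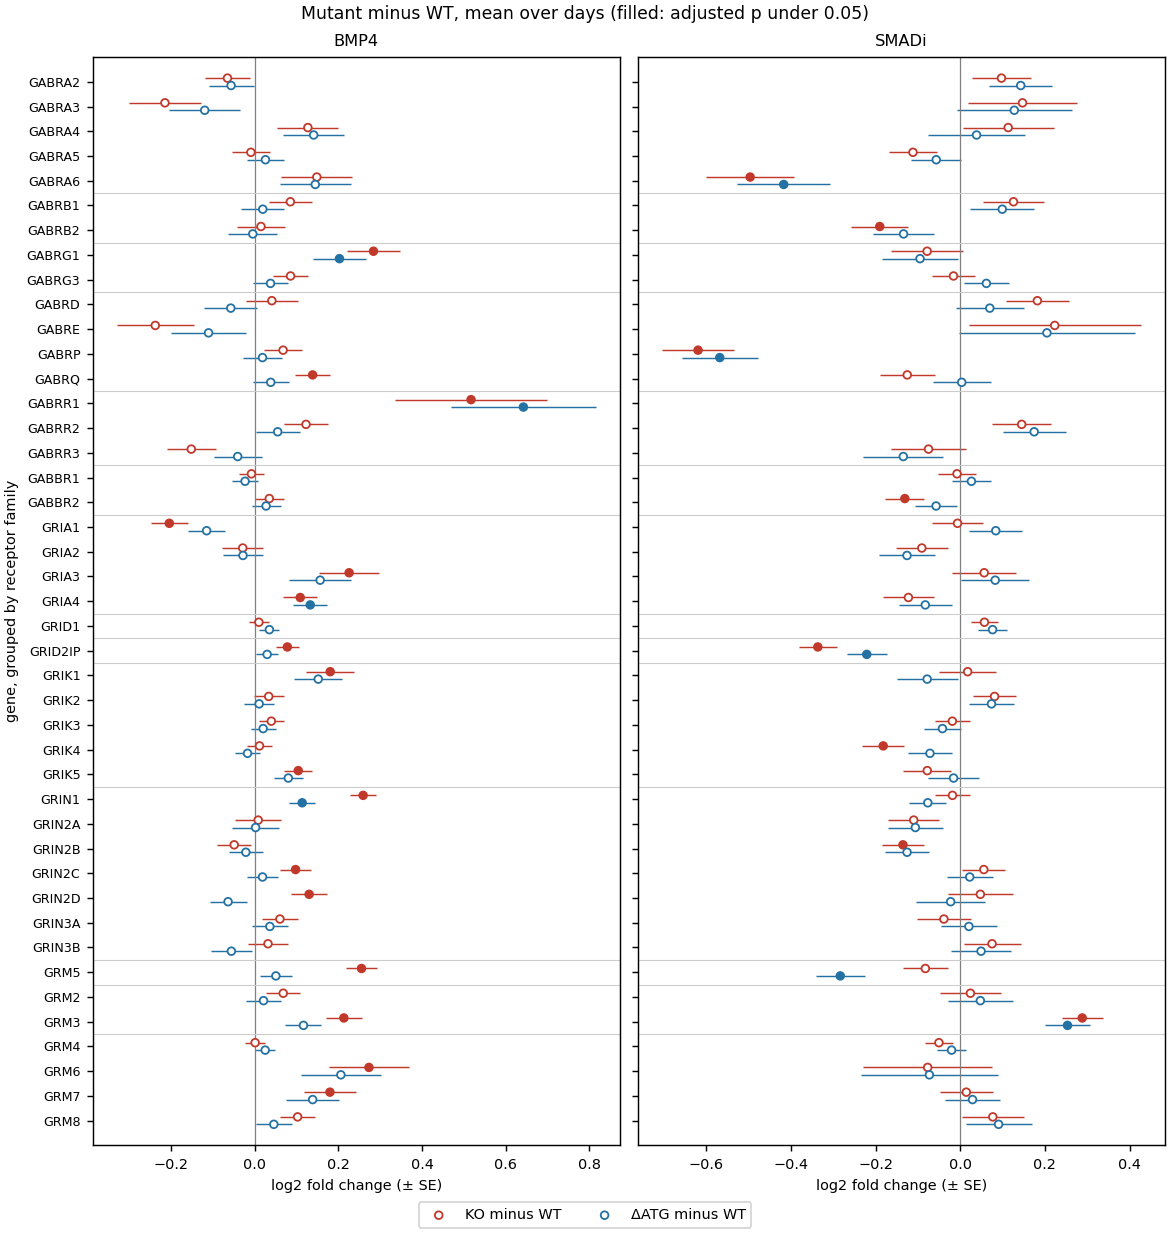
Mean difference from WT over days for 43 receptor genes, as log2 fold change with its SE, for KO and for ΔATG, under BMP4 and under SMADi. Under BMP4 KO points lie mostly above 0 and ΔATG points nearer to it, while under SMADi GABRP and GABRA6 lie below 0 and GRM3 above it in both lines.

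GRIN1, for the subunit that every NMDA receptor contains, was higher in KO on every day. Its WT values over the 5 days lay between 108 and 131 CPM, those of KO between 126 and 162 CPM and those of ΔATG between 119 and 144 CPM. On each day both KO values were above both WT values. KO minus WT was 0.26 ± 0.03 (edgeR adjusted p = 2.26e-09), ΔATG minus WT 0.11 ± 0.03 (edgeR adjusted p = 0.0108), and KO minus ΔATG 0.15 ± 0.03 (edgeR adjusted p = 0.0022). All 3 calls held whichever library was left out.

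GRM5 was higher in KO by 0.26 ± 0.04 than in WT (edgeR adjusted p = 3.65e-07) and by 0.20 ± 0.04 than in ΔATG (edgeR adjusted p = 0.000274). On day 5 it had 73.1 and 66.7 CPM in KO, 53.5 and 47.8 in WT, and 56.4 and 53.3 in ΔATG, with KO apart from both. GRM3 had 61.5 and 62.3 CPM in KO on day 5 against 47.9 and 40.8 in WT (mean over days 0.21 ± 0.04). The groups did not overlap. In ΔATG GRM3 was at 56.9 and 56 CPM on day 5, with a mean over days of 0.12 ± 0.04 (edgeR adjusted p = 0.072) against WT.

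GABRG1 was higher in both lines, by 0.28 ± 0.06 in KO and 0.20 ± 0.06 in ΔATG. The second call (edgeR adjusted p = 0.0287) held in 20 of the 30 fits that left out 1 library. On day 5 it had 24.5 and 20.1 CPM in KO and 20.8 and 19.3 in ΔATG, all above the 16.3 and 15.4 CPM of WT. GABRR1 rests on 1 region with 0.822 to 3.2 CPM in WT, so its differences of 0.52 ± 0.18 in KO and 0.64 ± 0.17 in ΔATG come from few counts. GRIK1 was higher by 0.18 ± 0.06 and GRM7 by 0.18 ± 0.06 in KO, and GRIK1 had 21.1 and 21.8 CPM in KO on day 5 against 16.8 and 15 in WT. The GRIK1 difference was -0.0041 when 4 further regions, inside the gene but over 50 kb from its ends, were added to the sum.

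KO and ΔATG differed in 3 genes, all higher in KO: GRM5, GRIN1 and GRIN2D, for another NMDA subunit (0.19 ± 0.04, edgeR adjusted p = 0.00616). Across all genes 0.888% were called higher and 1.11% lower in that comparison. A pair of GRIN2D regions inside the gene, near its end, moved with this; they were singled out after their values were seen. The region at chr19:48442736-48442936 lay between 3.91 and 6.39 CPM in KO, between 1.18 and 3.86 in WT and between 0.248 and 3.36 in ΔATG, so that every KO value was above all others. Under SMADi the matching region (chr19:48442729-48442929) was lowest in ΔATG, at 0.139 to 0.914 CPM, against 2.32 to 4.44 CPM in WT. It was lower than WT by 3.03 ± 0.34 in ΔATG and by 0.92 ± 0.25 in KO there. The KO value includes the library labelled KO day 1 SMADi b, which was like ΔATG at regions lost in that line. A value without that library is not given here. At day 0 that place had 9.02 and 7.38 CPM in KO, 4.77 and 4.13 in WT and 3.46 and 3.61 in ΔATG, without a call (edgeR adjusted p = 0.245 in KO).

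GRIA1, for an AMPA subunit, was the only gene called lower in KO under BMP4. Its values lay between 45.4 and 57.1 CPM in WT and between 37.4 and 50.2 CPM in KO, which overlapped over the course but not within a day (-0.20 ± 0.04, edgeR adjusted p = 0.000346). A region 11155 bp outside the gene (chr5:153825024-153825224) was lower by 0.81 ± 0.11 in KO and by 0.55 ± 0.10 in ΔATG, and without regions beyond 10 kb the difference of GRIA1 was 0.0051. Of 415 regions 45 were called higher and 27 lower in KO, against 9.1% and 12.4% of all regions, and 8 higher and 15 lower in ΔATG, against 4.12% and 5.21%. DESeq2 called 23 higher and 20 lower in KO and 1 and 1 in ΔATG. The ΔATG count was 13 to 15 without a single one of WT day 1 b, 2 b, 3 a or 5 b or of ΔATG day 1 b or 2 b. Within 1 kb of a gene end 9.38% were higher and 0.781% lower in KO, against 4.7% and 4.61% over all genes. Regions inside GRIN1 (chr9:137161274-137161474, 0.67 ± 0.10), GRM5 (chr11:88509132-88509332, 0.65 ± 0.09) and GABRQ (chrX:152641315-152641515, 0.55 ± 0.10) rose most among those of at least median depth. A region 38035 bp outside GRIN2B (chr12:13499102-13499302) was lower by 0.82 ± 0.12 in KO and 0.37 ± 0.12 in ΔATG.

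Under SMADi more receptor genes of WT cells were called lower than higher, and 24 of 47 were not called. From day 1 to day 5, 15 of 47 were called lower and 8 higher, with a median of -0.05 against -0.00057 over all genes. Across all genes 18.8% were called lower and 20.8% higher, so the share of receptor genes called higher lay under that of all genes. With total counts as the scale the split was 15 lower and 3 higher. Without WT day 1 a 12 genes were called, and without WT day 5 a 14. Without the library labelled KO day 1 SMADi b the count was 19, with 14 lower and 5 higher. Both GABA-B genes, 3 of 5 kainate genes and 3 of 4 metabotropic genes of group III were lower. Among the higher genes were GABRA6, GABRB2, GABRD, GRIA3 and GRM3. Of these GABRB2 was at -0.24 with regions within 10 kb only.

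GRM3 rose furthest. It had 56.9 and 56.9 CPM on day 1, 87.2 and 84.4 on day 4, and 85.7 and 89.6 on day 5 (0.63 ± 0.08, edgeR adjusted p = 1.37e-06). The region over its start (chr7:86643837-86644037), which covers the capitals of the GRM3 sequence printed above, went from 9.25 and 9.1 CPM to 30 and 24.4 CPM, a rise of 1.55 ± 0.15. GABRA6 went from 11.2 and 13.7 CPM to 19.5 and 19.6 on day 4 and 20.1 and 17 on day 5 (0.55 ± 0.17, edgeR adjusted p = 0.0104), with no overlap between day 1 and day 5, but the call was lost without WT day 1 a (adjusted p 0.14) or WT day 5 a (0.056).

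GRM7 and GABRP fell to a like extent. GRM7 went from 62.5 and 64.1 CPM to 48 and 45.2 on day 4 and 31 and 33.6 on day 5 (-0.96 ± 0.10, edgeR adjusted p = 6.63e-08). Its difference was 0.39 when 13 further regions, inside the gene but over 50 kb from its ends, were added to the sum. GABRP went from 44.8 and 51.4 CPM to 30.5 and 36.8 and then 26.3 and 23.8 (-0.95 ± 0.13, edgeR adjusted p = 3.84e-06), each day below the one before. GABRA4 went from 19.4 and 21.9 to 8.96 and 13.5 CPM (-0.82 ± 0.18), and its start lies next to that of GABRB1, so regions between them could belong to either. GABBR1, for the GABA-binding subunit of the GABA-B receptor, went from 147 and 142 to 91 and 98.3 CPM (-0.60 ± 0.07). GRID2IP went from 178 and 180 to 129 and 137 CPM (-0.42 ± 0.07), and GRIK1 from 41.8 and 39.9 to 33.5 and 33.7 CPM (-0.28 ± 0.11). The call of GRIK1 held in 5 of 15 fits that left out 1 library, and its value was 0.16 with lncRNA genes and 0.10 with gene bodies.

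Some single regions opened from near 0. A GRIK3 region 35686 bp outside the gene (chr1:37070201-37070401) had 0.0601 and 0.13 CPM on day 1 and 5.73 and 4.3 CPM on day 5 in WT cells. These are 3 counts against 104, a 47.3-fold ratio with an exact 95% interval of 15.7 to 233.1 that covers counting error only. KO had 16 and 20.3 CPM and ΔATG 17.2 CPM there on day 5, all above WT. A region inside GRID1 (chr10:86346456-86346656) went from 0.481 and 0.52 CPM to 11.8 and 12 CPM, a rise of 4.55 ± 0.32. A region inside GRIK4 (chr11:120957244-120957444) went the other way, from 15.3 and 12 to 0.735 and 0.927 CPM, a difference of -3.97 ± 0.32. In GRM4, the receptor gene with the most linked regions, 1 region 12444 bp outside the gene (chr6:34005999-34006199) went from 11.9 and 13.6 to 3.23 and 4.04 CPM (-1.77 ± 0.24). Of 470 regions 121 were called lower and 79 higher, against 17.1% and 23.9% of all regions. Within 1 kb of a gene end 24.6% of 126 were lower and 6.35% higher, against 13.7% and 10.8% over all genes. Without the library labelled KO day 1 SMADi b, 122 of the 470 were lower and 73 higher, and near gene ends 24.6% and 3.97%.

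The same genes under both treatments can be set side by side, since the tables share no library. Of the 47, 11 were called lower in WT under BMP4 and under SMADi, among them GABBR1, GABRA4, GABRA5, GABRP, GRID2IP, GRIK1, GRIK5, GRIN3A, GRM7 and GRM8. Another 6 were called lower under BMP4 and higher under SMADi, among them GABRA6, GABRB2, GRIA3 and GRM3. Across all genes 23.6% were called lower under BMP4, and 18.8% lower and 20.8% higher under SMADi. The share of all genes with each pair of calls was not computed, so these counts are not read as particular to receptor genes. The tables were normalised separately, so the difference between treatments was not tested.

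Under SMADi accessibility at GABRP, GABRA6 and GRID2IP was called lower than in WT in KO and in ΔATG, and at GRM3 higher. These comparisons share the WT libraries, so their values are set side by side. KO minus WT gave 9 of 47 lower and 2 higher, against 20.9% lower and 17.6% higher over all genes. ΔATG minus WT gave 7 lower and 2 higher, against 16.1% and 13%. All of these shares lay under those of all genes. Also lower in KO were GABRB2, GRIK4, GRIN2B and GABBR2, and in ΔATG GRM5. The GRIK4 difference of -0.18 in KO was 0.0053 with regions within 10 kb only. No gene of the 47 was called between KO and ΔATG by edgeR (smallest adjusted p = 0.625, 2 unadjusted p under 0.05, 0 by DESeq2), where 0.0669% of all genes were higher and 0.0502% lower. Without the library labelled KO day 1 SMADi b, KO minus WT gave 7 lower and 2 higher, as GABRB2 (adjusted p = 0.0572 by edgeR) and GRIN2B (0.0616) were no longer called, and ΔATG minus WT still gave 9. Pluripotency genes were called lower for 6 of 6 in both lines. Neuroectoderm genes were higher for 2 and lower for 2 of 8 in KO and higher for 2 and lower for 1 in ΔATG. Markers of neurons were higher for 3 and lower for 4 of 11 in KO and 2 and 2 in ΔATG. On days 4 and 5 the share of counts within 1 kb of a gene end was 33.7 to 35.9% in WT, 38.1 to 42.4% in KO and 37.4 to 40.4% in ΔATG. The part of these in the differences was not tested.

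GABRP and GABRA6 carried the largest differences. Under SMADi GABRP had 7 linked regions and GABRA6 had 3, and none of them lay within 1 kb of a gene end. GABRP had 26.3 and 23.8 CPM on day 5 in WT, 10.7 and 13.4 in KO and 15 in ΔATG, after 44.8 and 51.4, 47.5 and 42.6, and 44.8 CPM on day 1. The lines overlapped on day 1 and not on days 4 and 5, when WT was highest. The mean over days was -0.62 ± 0.09 in KO (edgeR adjusted p = 3.45e-06) and -0.57 ± 0.09 in ΔATG (edgeR adjusted p = 3.11e-05), and -0.59 in KO without the library that went against its label. GABRA6 had 20.1 and 17 CPM on day 5 in WT, 9.95 and 9.67 in KO and 11 in ΔATG, after 11.2 and 13.7, 13.1 and 13.9, and 13.6 CPM on day 1. So the day 5 values of WT were above its day 1 values, and those of the altered lines were below theirs. The mean over days was -0.50 ± 0.10 in KO (edgeR adjusted p = 0.00055) and -0.42 ± 0.11 in ΔATG (edgeR adjusted p = 0.00564).

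**Figure D5:**
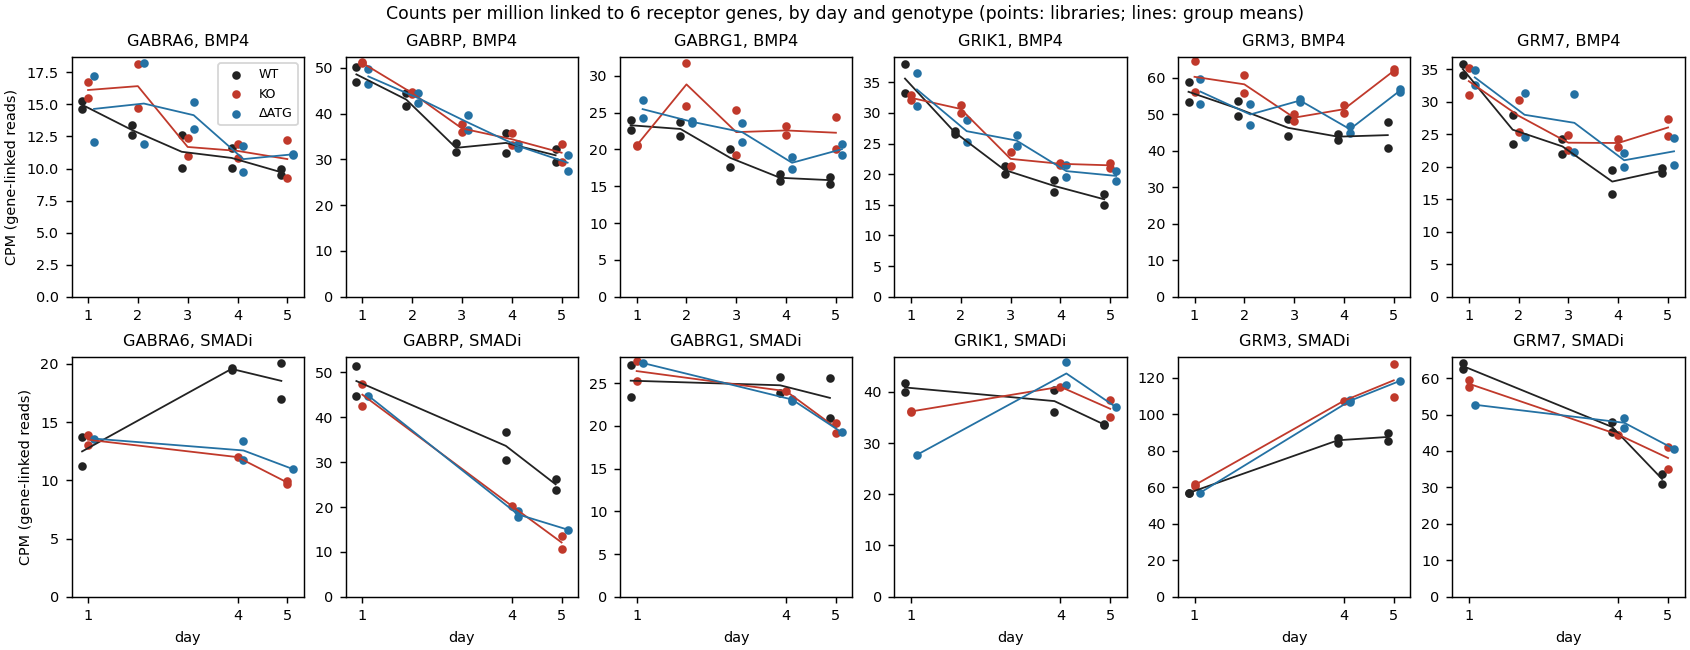
CPM by day for GABRA6, GABRP, GABRG1, GRIK1, GRM3 and GRM7 in WT, KO and ΔATG libraries, each point 1 library and each line the mean of a group, with BMP4 and SMADi in separate panels. On day 5 of SMADi the WT libraries of GABRA6 (20.1 and 17 CPM) and GABRP (26.3 and 23.8 CPM) sit above all KO and ΔATG libraries, and those of GRM3 (85.7 and 89.6 CPM) below them.

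GRM3 went further up in the altered lines. GRM3 had 109 and 128 CPM in KO and 118 in ΔATG on day 5, against 85.7 and 89.6 in WT, and 107, 107 and 108 on day 4 against 87.2 and 84.4. All altered-line values of days 4 and 5 were above all WT values (0.29 ± 0.05 in KO and 0.25 ± 0.05 in ΔATG). GRID2IP was lower, with 112 and 92.7 CPM in KO and 112 in ΔATG on day 5 against 129 and 137 in WT (-0.34 ± 0.05 and -0.22 ± 0.05). GRM5 was called lower in ΔATG only, by 0.28 ± 0.06, with 48.8 CPM on day 5 against 70.4 and 70 CPM in WT. KO had 59.1 and 61.2 CPM and a difference from WT of -0.08 ± 0.05. KO minus ΔATG was 0.20 ± 0.06 (edgeR adjusted p = 0.625).

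Of 470 regions 70 were called higher and 96 lower in KO, against 17.9% and 21.6% of all regions, and 48 higher and 79 lower in ΔATG, against 11.1% and 17.4%. Without the library labelled KO day 1 SMADi b the numbers were 55 and 91 in KO and 47 and 77 in ΔATG. Regions near gene ends and far from them went opposite ways: within 1 kb of an end 23.8% were higher and 5.56% lower in KO, and outside genes beyond 1 kb 13.2% were higher and 33.3% lower. All protein-coding genes showed the same split, with 27.2% and 6.56% near ends and 13.8% and 25.4% outside. At promoter windows 11 of 39 regions were higher in KO, at GABBR2, GABRG3, GRIA1, GRIA2, GRIA4, GRIK2, GRIK3, GRIN2D, GRIN3A and GRM3, and 1 was lower, at GABRG1. In ΔATG 10 were higher and 1 lower. Promoter windows of all genes were not counted. Of all regions within 1 kb of either end of a protein-coding gene, 27.2% were higher and 6.56% lower in KO. In ΔATG these shares were 14.5% and 5.28%. That class is wider than promoter windows, so the promoter counts are not read as particular to receptor genes. Without the library labelled KO day 1 SMADi b, 17.5% were higher and 4.76% lower in KO within 1 kb of an end, and 10.5% and 32.5% outside genes beyond 1 kb. At promoter windows 8 were then higher and 1 lower in KO, and 9 and 1 in ΔATG. The shares over all genes above belong to the fit with that library, so they are no measure for these numbers.

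A region inside GABRR2, for a rho subunit, opened further in the altered lines than in WT (chr6:89298230-89298430). In WT it was also called higher from day 1 to day 5, by 5.04 ± 0.83, on 29 counts against 1. KO had 0.392 and 0.413 CPM on day 1, 5.93 on day 4, and 15.1 and 11.7 on day 5. ΔATG had 0.332, then 5.58 and 5.57, then 11.8 CPM. WT had 0 and 0.065 CPM on day 1, 0.626 and 1.18 on day 4, and 0.735 and 1.59 on day 5, the lowest of the lines on each day. The means over days were 3.15 ± 0.38 (3.13 without the library labelled KO day 1 SMADi b) and 2.97 ± 0.53, with 1 count in all in WT on day 1 behind them. Regions of GRM4 (chr6:34005999-34006199) and inside GABRQ (chrX:152641409-152641609) were lower in both lines, by 1.31 ± 0.17 and 1.21 ± 0.19 in KO and by 1.04 ± 0.17 and 0.88 ± 0.19 in ΔATG. The GRIK4 region described above was lower by 1.66 ± 0.30 in KO. Another inside GRIK4 (chr11:120527489-120527689) was lower by 1.03 ± 0.12 in ΔATG, and 1 inside GRM3 (chr7:86668420-86668620) was higher by 1.08 ± 0.23.

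Whether the change from day 1 to day 5 itself differed between lines was tested as an interaction, the change of an altered line minus that of WT. Under BMP4 it was called for 3 of 48 genes in KO, all higher (among them GABRG1 and GRIK1), against 2.79% higher and 2.86% lower over all genes, and for 0 in ΔATG (smallest edgeR adjusted p = 0.238, 5 unadjusted p under 0.05, 0 by DESeq2), against 0.124% and 0.249%. DESeq2 called 0 in KO as well. GABRG1 went from 20.5 and 20.7 to 24.5 and 20.1 CPM in KO while it fell in WT (0.68 ± 0.20, edgeR adjusted p = 0.0283). Under SMADi the interaction was called for 6 genes higher and 7 lower in KO, against 7.89% and 13.3% over all genes, and for 4 and 4 in ΔATG, against 7.04% and 10.4%. GABRA6 (-1.01 ± 0.24, edgeR adjusted p = 0.00413) and GABRP (-0.94 ± 0.19, edgeR adjusted p = 0.00149) led in KO. Without the library labelled KO day 1 SMADi b the KO count was 5 (with GABRA6, GABRP, GRIA1 and GRIK4 lower) and the ΔATG count 4 (with GRIK4 lower, GRIK1 and GRM7 higher). With regions within 10 kb only the value of GRIA1 in KO turned to 0.68, and with gene bodies that of GRIK1 in ΔATG to -0.0011. Other libraries also moved these counts. In KO they fell to 5 to 8 without a single library of WT day 1, KO day 1 or KO day 5, and in ΔATG the count was 17 without WT day 5 b. The BMP4 count in KO was 0 without KO day 1 a or WT day 5 b.

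Genes that make, carry or gather the transmitters and receptors were taken as 4 lists of 68 genes. In WT under BMP4 13 of the 68 were called higher and 23 lower, against 23.9% higher and 23.6% lower over all genes. Genes of GABA synthesis, transport and chloride were lower for 6 and higher for 0 of 10, and those of glutamate synthesis and transport lower for 4 and higher for 3 of 13. Scaffolds and auxiliary subunits were lower for 4 and higher for 2 of 11 on the GABA side and lower for 9 and higher for 8 of 34 on the glutamate side. SLC1A7, for a glutamate transporter best known from the retina, rose by 1.40 and GABARAP, for a protein of receptor trafficking and autophagy, by 0.46. SLC17A6, for a vesicular glutamate transporter, fell by 0.91. In WT under SMADi 13 were higher and 13 lower, near the 20.8% higher and 18.8% lower over all genes. Among the higher were SLC1A7 at 1.26 and NPTX2, for a pentraxin that gathers AMPA receptors, at 0.71. Among the lower were HOMER2, a scaffold of group I receptors, at -0.54 and NETO1, an auxiliary kainate subunit, at -0.53.

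In the altered lines genes of these lists were called in both directions. Under BMP4 18 were higher and 3 lower in KO and 8 and 1 in ΔATG. Over all genes the shares were 11.6% and 11.2% in KO and 5.43% and 5.02% in ΔATG. SLC17A6 (0.28 in KO, 0.23 in ΔATG) and NPTX2 (0.30 and 0.19) were above WT and SLC1A7 (-0.29 and -0.19) below it, and DLG2, a postsynaptic scaffold, was at -0.23 in KO, or at 0.16 with regions within 10 kb only. KO minus ΔATG gave 1 (SLC17A7, 0.10), against 0.888% higher and 1.11% lower over all genes. The interaction gave 4 higher and 1 lower in KO (SLC17A6 0.79, NPTX2 0.52, SLC1A7 -0.64) and 1 lower in ΔATG (SLC1A7, -0.48). Over all genes it was called higher for 2.79% and lower for 2.86% in KO, and for 0.124% and 0.249% in ΔATG. Under SMADi 21 were higher and 15 lower in KO, or 15 and 14 without the library labelled KO day 1 SMADi b, and 13 and 10 in ΔATG. The shares of all genes there were 17.6% and 20.9% in KO and 13% and 16.1% in ΔATG. NLGN2, an adhesion protein of inhibitory synapses, was at 0.39 in KO, NPTXR at 0.29 in ΔATG, and SLC1A7 at 0.32 and 0.37 in KO and ΔATG. The glutamate transporter genes SLC1A6 (-0.48 and -0.35) and SLC17A8 (-0.45 and -0.38) were lower in both. KO minus ΔATG gave 0 by edgeR, against 0.0669% higher and 0.0502% lower over all genes. The interaction gave 5 higher and 11 lower in KO (4 and 7 without that library), among them GABARAP (0.65), SLC12A2 (0.53), SLC1A1 (-0.88) and SLC6A11 (-0.65). In ΔATG it gave 8 and 9 (6 and 8 without that library), among them DLG1 (0.89), KCTD12 (0.62), SLC6A11 (-1.01) and SLC17A8 (-0.81). Over all genes the interaction was called higher for 7.89% and lower for 13.3% in KO, and for 7.04% and 10.4% in ΔATG. At day 0 GABARAP alone was called, in KO at 0.36, where 0.058% of all genes were called higher. That call held in 1 of 6 fits that left out 1 library.

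Of the 48 receptor genes, 7 were called in none of the 14 gene comparisons: GABRE, GABRR3, GRID1, GRIK3, GRIN2A, GRIN3B and GRM2. GRID1 and GRIK3 still held strongly changed single regions, as given above.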

How the data were processed

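ATAC-seq had been counted in 51 libraries. The authors deposited 3 tables of whole-number counts, not normalized, 1 column per library, in regions of 201 bp. Per the submitters' processing notes, MACS2 was used and the build was GRCh38; the aligner, the settings for peaks, duplicate handling and any transposase shift: not given in the sources used here. Region sets differ between tables, so tests stayed within a table. All columns matched a sample (0 did not).

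Regions were linked to the RefSeq protein-coding gene with the nearest end within 50 kb. Counts were summed per gene, and genes and single regions were tested on the whole table with edgeR 4.0.16 (R 4.3.3): TMM, filterByExpr, 1 mean per line, treatment and day, quasi-likelihood F test, robust, Benjamini-Hochberg adjusted p under 0.05. "Called", "rose" and "fell" mean this threshold. KO or ΔATG minus WT is the mean of within-day differences, and the SE is the log2 difference over the root of F. Gene CPM is scaled to all gene-linked counts and region CPM to counts in all tested regions. Only the gene test of KO minus WT was tried on simulated counts, which held no effect of day or treatment. Interactions and region tests were not simulated. Reads carry no molecular identifiers, so counting intervals cover counting error only.

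Genes described in full were the 10 called in most comparisons, of those called in at least 3, and named regions the 3 with the largest differences per direction and comparison among called regions of at least median depth, 1 per gene, plus the regions over gene starts. Up to 2 genes per direction were named from the pathway lists. Genes whose groups or families are discussed are named besides, after their values were seen. Some of these genes are not reported here by name and enter only the counts. Members and lists were chosen with earlier results of these data known. Alternatives were DESeq2 1.42.0, total counts in place of TMM, no filter, regions within 10 kb, lncRNA genes included, gene bodies and a replicate block. Each library was also left out in turn, except in comparisons of a group that held only that library. Exons, introns and the sequences of regions beyond gene starts were not analysed here.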

Additional observations from a re-analysis of the deposited data

Results flagged for a closer look

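Each value below is the day 5 minus day 1 change of an altered line minus that of WT, on the log2 scale, and the difference itself passed edgeR's adjusted threshold. Under BMP4 these were GABRG1 (0.68) and GRIK1 (0.57), both in KO. Under SMADi in KO the change was above that of WT for GABRA4 (0.72), GABRB1 (0.53), GABRR2 (0.48) and GRM3 (0.33). It was below that of WT for GABRA6 (-1.01), GABRP (-0.94), GRIK4 (-0.46), GRIA1 (-0.42), GRIN2B (-0.38) and GRID2IP (-0.32). Under SMADi in ΔATG it was above for GRIK1 (0.70), GRM7 (0.58), GRIK2 (0.43) and GRM3 (0.42), and below for GABRA6 (-0.86), GRIK4 (-0.46) and GRM5 (-0.43). Some of these directions depended on how regions were linked to genes. With regions within 10 kb GABRB1 was at -0.65 and GRIA1 at 0.68 in KO, with lncRNA genes GRM5 was at 0.21 in ΔATG, and with gene bodies GRIK1 was at -0.0011 in ΔATG, all under SMADi. KO and ΔATG share the WT libraries. Of the KO calls under SMADi, GABRA6, GABRP and GRIK4 held whichever library was left out. Of the ΔATG calls GRIK1 held in all 13 fits that could be made. The single libraries of ΔATG day 1 and day 5, on which that contrast rests, could not be left out. Neither of the BMP4 calls held in every fit that left out 1 library.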

How the results depend on the processing

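Of 130 counts of calls under other settings, 113 stayed within 1.5 times the main count. The 17 others follow, and their cause was not tested unless the setting itself removes or adds regions. DESeq2 called 6 genes in KO and 1 in ΔATG under BMP4, 0 in the BMP4 KO interaction, 7 and 4 in the SMADi interactions of KO and ΔATG, and 69, 43 and 2 regions under BMP4 in WT, KO and ΔATG. Counting regions inside gene bodies gave 8 genes in BMP4 ΔATG, 6 in the BMP4 KO interaction, 19 in SMADi KO and 14 in SMADi ΔATG. Regions within 10 kb gave 5 in each SMADi interaction, total counts 6 in the BMP4 KO interaction, and lncRNA genes 1 in SMADi KO minus ΔATG.

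Library letters did not pair the samples throughout. Correlations of deviations from group means had a median of 0.0361 under BMP4, from -0.246 to 0.249, with 26 of 105 over 0.1. Under SMADi the median was -0.0389, from -0.245 to 0.279. Medians near 0 cannot show whether some groups were paired. The fit with the replicate block is given here only. It gave 5 genes in the BMP4 KO interaction and kept every other count within 1.5 times: 26, 18, 4, 3 and 0 genes in the other BMP4 comparisons, 20, 11, 9, 0, 13 and 6 under SMADi, and 129, 72, 24, 197, 157 and 113 regions. At day 0 the block gave 0 genes and 0 regions.

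Leaving out 1 library gave 0 to 0 and 0 to 1 genes at day 0 in KO and ΔATG. Under BMP4 it gave 17 to 27 in WT, 12 to 21 in KO, 1 to 5 in ΔATG, 3 to 3 in KO minus ΔATG, 0 to 6 in the KO interaction and 0 to 0 in that of ΔATG. Under SMADi it gave 12 to 23, 8 to 14, 8 to 12, 0 to 0, 5 to 13 and 3 to 17 in the same order. KO day 4, ΔATG day 1 and ΔATG day 5 had 1 library each, so comparisons with these groups could not be fitted without it. This left 14 fits of KO minus WT, 13 of ΔATG minus WT, 12 of KO minus ΔATG and 13 of the ΔATG interaction. The SMADi ranges therefore do not cover those single libraries. Regions numbered 0 to 2 and 0 to 1 at day 0, 76 to 129, 62 to 74 and 13 to 26 under BMP4 in WT, KO and ΔATG, and 157 to 202, 144 to 181 and 104 to 135 under SMADi. All receptor-gene and region calls at day 0 came without WT b.

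Of named values 14 reversed, all under another rule for linking regions to genes. With regions within 10 kb the log2 values were -0.41 for GABRA2, 0.0051 for GRIA1 (KO) and 0.16 for DLG2 (KO) under BMP4. Under SMADi they were -0.24 for GABRB2 in WT, 0.0053 for GRIK4 in KO, and -0.65 for GABRB1 and 0.68 for GRIA1 in the KO interaction. With lncRNA genes GRIK1 was at 0.16 in SMADi WT and GRM5 at 0.21 in the SMADi ΔATG interaction. With gene bodies GRIK1 was at -0.0041 (BMP4 KO), 0.10 (SMADi WT) and -0.0011 (SMADi ΔATG interaction), GRIK4 at 0.14 and GRM7 at 0.39 in SMADi WT. Regions near 1 CPM rest on few counts, so small differences there were not detectable.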
